A study of Mus musculus with 12 samples.

Results

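The 32 genes described here make cholesterol and fatty acids or regulate that synthesis. They were taken from the deposited gene table by symbol, and all 32 were among the 54347 genes in it and among the 15319 genes that passed a filter on low counts. By role, 6 belong to the mevalonate arm, 11 convert squalene precursors to cholesterol, 4 regulate the pathway or carry sterols, and 11 serve fatty acid synthesis. They were measured by poly(A) RNA sequencing in PYMT cells, a mouse line that carries the name of a breast cancer model, in which polyoma middle T drives tumours of the mammary gland. The 4 groups had 3 libraries each. Cells of the TGFB2 group received TGFB2 at 5 ng/mL for 3 days, those of the BMP4 group BMP4 at 5 ng/mL for 3 days, and those of the BMP4-TGFB2 group both ligands at these doses. The NT group received neither ligand. All cells were harvested from matrigel 2 days after the medium was changed, so they may have been read after the treatment had ended. The labels name a single cell line and speak of biological replicates without saying how they were kept apart. A p-value therefore reflects only how much these cultures vary, and in fits with replicate number as a block only what remains beyond it. The series' text gives the question as which programs TGFB2 and BMP4 use, alone or together, to bring on dormancy.

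Cells build cholesterol from acetyl-CoA through mevalonate, isoprenoid units, squalene and lanosterol, and they build long-chain fatty acids from the same acetyl-CoA through malonyl-CoA. The SREBP transcription factors, encoded by Srebf1 and Srebf2, switch on the genes of both branches when membrane sterols run low. Insig1 holds their precursors in the endoplasmic reticulum when sterols are plentiful. In the lactating mammary gland these pathways supply milk fat, and dividing cells use them for new membrane.

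Library totals ran from 28543128 to 42167771 estimated counts. Epithelial markers summed to between 3958 and 5042 TPM (a level scaled for gene length and library depth) over the 12 libraries, with Krt5 at most at 0.853 TPM. Of the other lineages, 7 adipocyte markers summed to at most 5.68 TPM, with Adipoq, Plin1 and Lep listed at 0 in some libraries. Leukocyte markers summed to 6.13 to 15.4 TPM with TGFB2, 6.72 to 11.4 TPM with BMP4, 6.99 to 12.3 TPM with both ligands and 2.55 to 6.19 TPM in NT, mostly from Cd68. Fibroblast markers summed to 8.44 to 14.8 TPM with TGFB2, 2.56 to 14.2 TPM with BMP4, 5.30 to 15.2 TPM with both and 2.54 to 9.32 TPM in NT. These sums are small beside the 1191 to 3968 TPM of the 32 genes, and their part in the results was not tested. As a check of the ligands, Smad7, a feedback inhibitor of both pathways, was higher by 1.64 ± 0.11 with TGFB2 and by 1.58 ± 0.11 with BMP4 on the log2 scale (SE). Since it rose alike with both, Smad7 does not tell the ligands apart. Of 8 ligand response genes 5 rose and 1 fell with TGFB2, beside 18.7% and 19.2% of all genes. With BMP4 8 rose, beside 8.60% of all genes (edgeR, adjusted p under 0.05).

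Cells that had received TGFB2, alone or with BMP4, held less mRNA of nearly the whole set than NT cells. The 32 genes together reached 1191, 1816 and 1663 TPM in replicates 1, 2 and 3 of TGFB2, 1559, 2910 and 2230 TPM with BMP4, 1243, 2091 and 1634 TPM with both ligands, and 1942, 3968 and 3508 TPM in NT. Within each replicate number NT was the highest of the 4 groups, while replicate 1 was the lowest library of every group. In bulk RNA, fewer cells that express a gene and less RNA per cell cannot be told apart. Each comparison was made with replicate number as a block, as the definition of the gene set asks, and the counts without the block stand beside the results.

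With TGFB2, 27 of the 32 genes fell and none rose at an adjusted p under 0.05, where 19.2% of all genes tested fell and 18.7% rose. No gene rose at an unadjusted p under 0.05 either, and DESeq2 gave 28 falls and 0 rises. The median log2 fold change was -1.03 for the 32 genes and 0.00 for all genes. In 28 of the 32 every TGFB2 library lay below the NT library of the same number in CPM (counts scaled to the library total), against 29.5% of all genes. Without the block 12 of the 32 fell, beside 11.1% of all genes, and 0 rose, beside 11.3%.

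**Figure D1:**
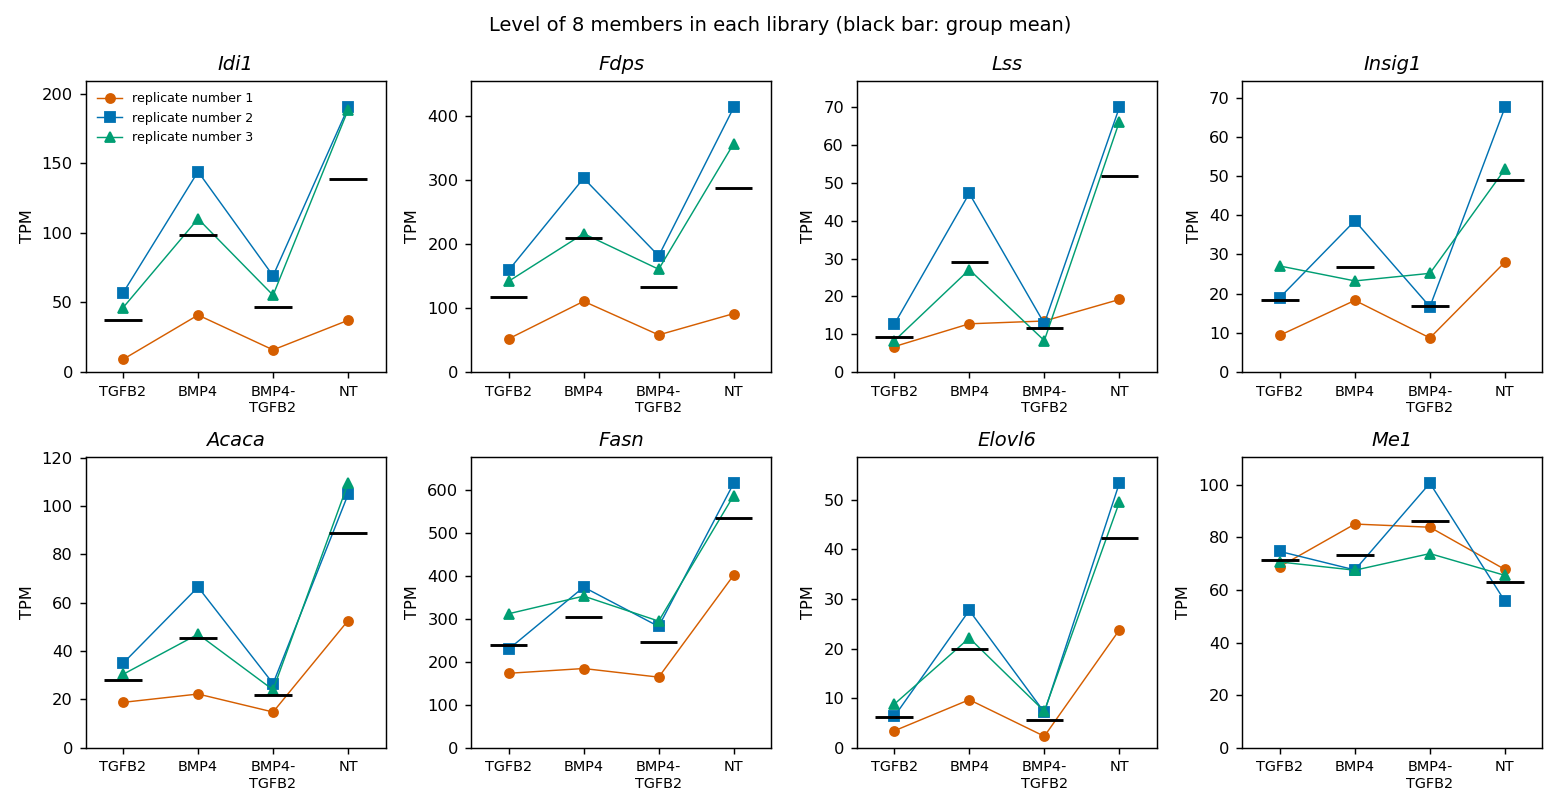
TPM (vertical axis, linear, starting at 0) of 8 members in the TGFB2, BMP4, BMP4-TGFB2 and NT groups. Each symbol is 1 library, lines join libraries of the same replicate number and black bars are group means over 3 libraries. Idi1 stood at 9.11, 56.9 and 46.3 TPM with TGFB2 and at 37.2, 190 and 188 TPM in NT, lower within each number although the groups overlap, while Me1 lay higher in the treated groups.

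The upstream sequence was compared for the genes that the results turn on. SREBP proteins are known to act beside NF-Y, which binds the CCAAT box. The members were chosen as genes of SREBP-driven synthesis, so their motif counts are not independent of that choice. What part any motif has in the changes was not tested. The 250 bases before the start of the gene were read from RefSeq (GRCm38.p6) for 26 of the 32 members. Some had more than 1 start listed, so these 26 members had 32 windows. The table had no entry for Fdft1, Fdps, Scd1, Scd2, Sqle and Stard4. CCAAT, read on both strands, was in at least 1 window of 23 of the 26 members and of 40.5% of 11043 tested genes. By window it was in 24 of the 32, against 33.8% of all windows in the reference. The 3 members without it in any window were Acaca, Acly and Elovl6, which all fell with TGFB2. Ebp, Sc5d, Tm7sf2, Acacb and Me1, which did not pass with TGFB2, all had it. The sterol element TCACNCCAC was in 1 window, that of Hmgcs1, against 1.24% of tested genes, and the E-box TCACGTGA was in none, against 1.68%. Only exact matches to these letters within the 250 bases were counted. A variant of either element, or a site elsewhere, would have been missed. Median GC content was 62.8% over the 32 windows of the members and 59.6% over those of tested genes. Of these windows 5 are printed: Idi1, Lss, Insig1 and Thrsp had the largest TGFB2 change of their role, and Hmgcs1 was added after its match to the sterol element was seen. Capitals mark CCAAT on either strand (CCAAT or ATTGG) and the sterol element. The windows, each on the strand of its gene, are chr13:8885356-8885605 (plus strand) for Idi1, chr13:119690101-119690350 (plus) for Hmgcs1, chr10:76531355-76531604 (plus) for Lss, chr5:28071162-28071411 (plus) for Insig1 and chr7:97417551-97417800 (minus) for Thrsp. In the GENCODE M21 annotation, the genes Idi1, Lss, Insig1 and Thrsp begin inside these windows.
Idi1: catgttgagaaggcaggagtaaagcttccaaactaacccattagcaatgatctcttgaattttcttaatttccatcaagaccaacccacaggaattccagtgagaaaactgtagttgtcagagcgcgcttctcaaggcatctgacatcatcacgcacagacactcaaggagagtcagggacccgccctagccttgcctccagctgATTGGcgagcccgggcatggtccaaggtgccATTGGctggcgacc
Hmgcs1: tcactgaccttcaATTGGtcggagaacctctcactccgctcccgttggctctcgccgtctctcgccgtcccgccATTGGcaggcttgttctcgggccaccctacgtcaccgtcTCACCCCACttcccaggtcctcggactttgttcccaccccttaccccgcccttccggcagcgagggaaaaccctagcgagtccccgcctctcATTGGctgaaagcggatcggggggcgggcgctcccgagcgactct
Lss: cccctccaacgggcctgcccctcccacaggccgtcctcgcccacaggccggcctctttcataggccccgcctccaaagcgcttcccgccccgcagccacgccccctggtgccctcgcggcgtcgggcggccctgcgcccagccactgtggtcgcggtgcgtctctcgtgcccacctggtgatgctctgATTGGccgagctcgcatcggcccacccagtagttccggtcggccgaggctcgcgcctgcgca
Insig1: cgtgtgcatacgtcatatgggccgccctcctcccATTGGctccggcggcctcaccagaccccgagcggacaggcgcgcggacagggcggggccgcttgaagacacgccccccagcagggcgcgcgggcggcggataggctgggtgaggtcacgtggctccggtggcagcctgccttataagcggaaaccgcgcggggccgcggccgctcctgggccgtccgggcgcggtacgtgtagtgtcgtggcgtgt
Thrsp: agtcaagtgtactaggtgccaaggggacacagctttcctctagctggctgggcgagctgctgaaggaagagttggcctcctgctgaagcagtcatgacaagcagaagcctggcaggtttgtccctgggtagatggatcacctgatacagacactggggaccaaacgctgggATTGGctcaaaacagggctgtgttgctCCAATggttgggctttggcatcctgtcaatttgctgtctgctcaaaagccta

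In the mevalonate arm, which turns acetyl-CoA into farnesyl diphosphate, all 6 genes fell with TGFB2. Idi1, the isomerase that makes dimethylallyl diphosphate, had 9.11, 56.9 and 46.3 TPM in replicates 1, 2 and 3 with TGFB2, against 37.2, 190 and 188 TPM in NT. Replicate 1 was the lowest library in both groups, so the groups overlapped while each TGFB2 library was below its NT partner. The log2 fold change of Idi1 was -1.90 ± 0.18 (SE, adjusted p = 3.2e-05). Hmgcs1, which makes HMG-CoA and whose promoter above holds the sterol element, had 25.1, 56.2 and 53.1 TPM with TGFB2 and 49.3, 144 and 146 TPM in NT, a change of -1.30 ± 0.13. Fdps, the farnesyl diphosphate synthase, had 51.9, 159 and 142 TPM with TGFB2 and 91.2, 413 and 357 TPM in NT, a change of -1.19 ± 0.17. In both genes replicate 1 of NT lay below replicates 2 and 3 of TGFB2. The 3 enzymes in between, the kinases Mvk (-1.10 ± 0.18) and Pmvk (-1.62 ± 0.25) and the decarboxylase Mvd (-0.95 ± 0.24), fell as well. Mvd missed the threshold when replicate 2 or 3 of NT or replicate 3 of TGFB2 was left out (adjusted p 0.0542 to 0.0613). Without the block, 1 of the 6 genes fell, Pmvk.

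From squalene to cholesterol, 8 of 11 genes fell with TGFB2. Lss, the lanosterol synthase that closes the sterol rings, had 6.72, 12.6 and 8.24 TPM in the 3 TGFB2 libraries, against 19.2, 69.9 and 66.2 TPM in NT. Every TGFB2 library was below every NT library, and the change was -1.84 ± 0.15 (adjusted p = 1.6e-05). Sqle, the squalene epoxidase, had 26.7, 62.7 and 55.7 TPM with TGFB2 and 59.7, 142 and 139 TPM in NT, a change of -1.22 ± 0.11. Cyp51, the lanosterol demethylase, changed by -1.21 ± 0.11, and Dhcr7, which catalyses the last step in one branch, by -0.79 ± 0.17. Fdft1, the squalene synthase, fell by 0.70 ± 0.12 on the log2 scale, and the demethylation enzymes Msmo1, Nsdhl and Hsd17b7 changed by -0.63 ± 0.13, -0.72 ± 0.11 and -0.53 ± 0.11. The 3 that did not pass were Ebp, the sterol isomerase (0.00 ± 0.15), Sc5d, the sterol desaturase (-0.19 ± 0.07, adjusted p = 0.057), and Tm7sf2, a sterol reductase (0.04 ± 0.37). Tm7sf2 had 8.23, 16.6 and 9.24 TPM with TGFB2 and 3.56, 15.2 and 13.2 TPM in NT, higher with TGFB2 in replicates 1 and 2 and lower in replicate 3. Its value is uncertain, since 532 bases of its exons are shared with Vps51, which had 465% of its CPM. Without the block 2 of the 11 fell, Lss and Dhcr7.

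The 4 genes of regulation and sterol transport all fell with TGFB2. Insig1 had 9.37, 19.0 and 27.0 TPM with TGFB2 and 28.0, 67.5 and 51.7 TPM in NT, with no overlap between the groups and a change of -1.47 ± 0.25 (adjusted p = 0.0012). Srebf1 had 55.8, 62.8 and 48.0 TPM with TGFB2 and 99.5, 107 and 86.5 TPM in NT, again without overlap, a change of -0.71 ± 0.08. Srebf2 had 44.4, 104 and 92.5 TPM with TGFB2 and 81.8, 143 and 139 TPM in NT, a change of -0.67 ± 0.08 in groups that overlapped. Stard4, a carrier that moves cholesterol between membranes, changed by -1.12 ± 0.15. Reads were unstranded, and Srebf1 shares 109 exon bases with Rai1 on the opposite strand, which had 34.0% of its CPM and changed by -0.12 ± 0.13 (adjusted p = 0.53). Without the block 2 of the 4 fell, Insig1 and Srebf1.

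Among the fatty acid genes 9 of 11 fell with TGFB2, and here the groups mostly did not overlap: in 8 of the 11 every TGFB2 library was below every NT library in CPM, against 19.2% of all genes tested, and 7 fell without the block. The same separation was seen in 0 of 6 mevalonate genes and 1 of 11 genes from squalene to cholesterol. Elovl6, which elongates palmitate to stearate, had 3.40, 6.30 and 8.78 TPM with TGFB2 and 23.7, 53.3 and 49.5 TPM in NT. The highest TGFB2 library was below the lowest NT library, the change was -2.78 ± 0.15 (adjusted p = 1.1e-06) and the fitted level was 14.5% of that in NT. Acaca, the acetyl-CoA carboxylase that makes malonyl-CoA, had 18.8, 34.9 and 30.4 TPM with TGFB2 and 52.6, 105 and 109 TPM in NT, a change of -1.55 ± 0.12. Fasn, the fatty acid synthase and the member with the highest mean level in NT, had 173, 229 and 312 TPM with TGFB2 and 402, 615 and 587 TPM in NT, a change of -1.23 ± 0.13. Neither gene overlapped between the groups.

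Acss2, which makes acetyl-CoA from acetate, had 2.79, 3.23 and 3.15 TPM with TGFB2 and 13.7, 14.9 and 9.21 TPM in NT, a change of -1.99 ± 0.21. It shares 395 exon bases with Gss on the opposite strand, which had 338% of its CPM but changed by 0.35 ± 0.15 with TGFB2 (adjusted p = 0.098), the other way. The level of Acss2 is therefore uncertain, and the share of its reads that came from Gss was not tested. Elovl5, an elongase of polyunsaturated fatty acids, changed by -0.71 ± 0.09 with no overlap, and Acly, which releases acetyl-CoA from citrate, by -0.57 ± 0.10. Thrsp, the Spot 14 protein linked to lipogenesis in liver and mammary gland, was near the limit of detection after treatment, with 0, 7 and 1 counts with TGFB2 and 72, 46 and 49 counts in NT. Its fitted change of -4.26 ± 1.16 (adjusted p = 0.015) was lost when replicate 3 of NT or of TGFB2 was left out (adjusted p 0.0661 and 0.0722). Acacb, the mitochondrial carboxylase, was low, with 53, 48 and 55 counts with TGFB2 and 118, 78 and 68 counts in NT, and did not pass (-0.76 ± 0.32, adjusted p = 0.088).

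The desaturases Scd1 and Scd2, which introduce the double bond of oleate, are paralogs that share sequence, so reads may have been split between them. Scd1 had 172, 110 and 40.0 TPM with TGFB2 and 157, 381 and 168 TPM in NT. Its pair of number 1 differed by 0.21 on the log2 scale and the others by -1.81 and -2.10, and the fitted change of -1.33 ± 0.38 (adjusted p = 0.020) was lost without replicate 2 or 3 of NT or replicate 2 or 3 of TGFB2 (adjusted p 0.0746 to 0.0992). Scd2 had 156, 169 and 151 TPM with TGFB2 and 205, 408 and 345 TPM in NT, with no overlap and a change of -0.96 ± 0.19. Me1, the malic enzyme that supplies NADPH, went the other way, with 68.9, 74.7 and 70.7 TPM with TGFB2 and 67.8, 55.7 and 65.6 TPM in NT. It was higher in 3 of 3 pairs but did not pass (0.28 ± 0.13, adjusted p = 0.11).

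**Figure D2:**
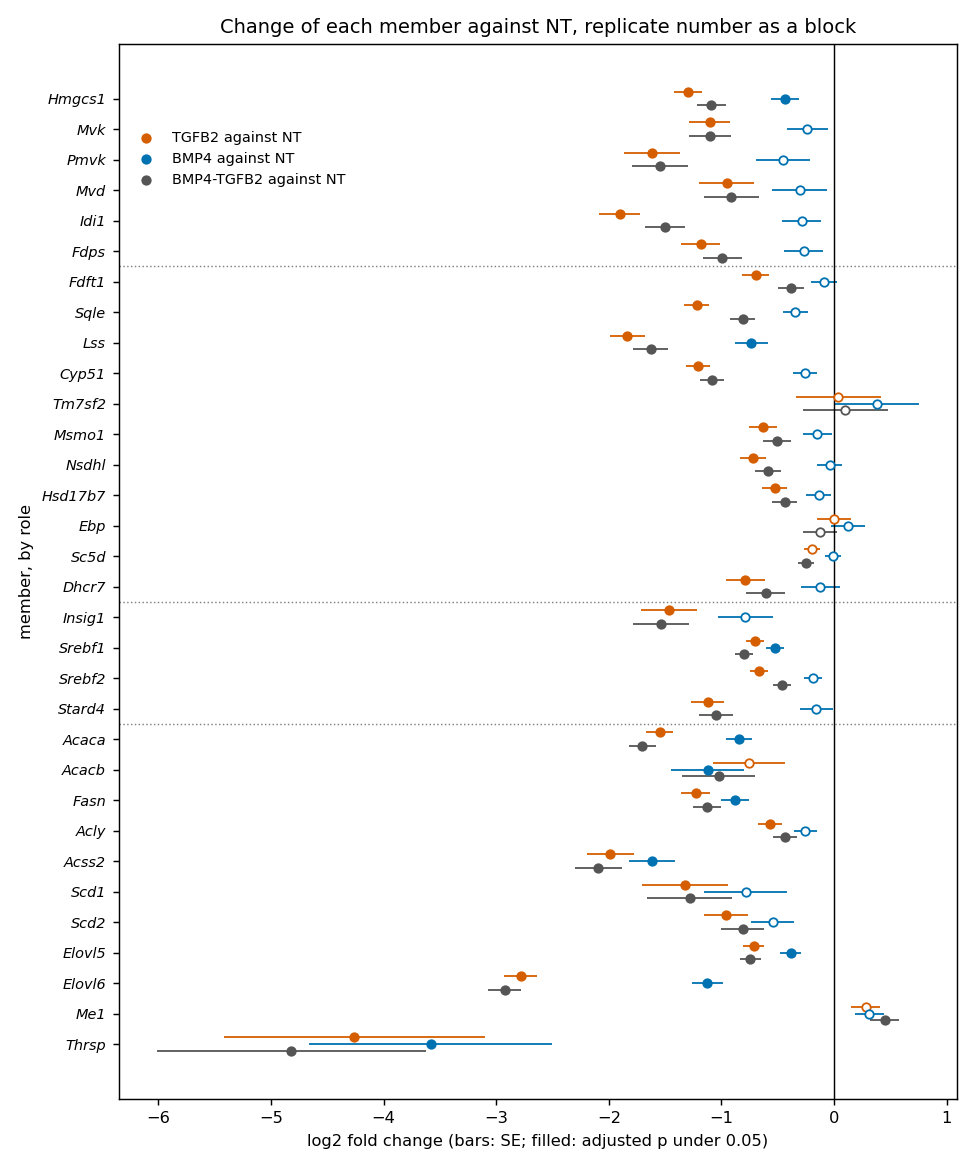
Log2 fold change of each of the 32 members (rows, grouped by role with dotted lines between the roles) for TGFB2, BMP4 and BMP4-TGFB2, each against NT. Points are fitted values with replicate number as a block, bars are SE, and filled points have an adjusted p under 0.05. TGFB2 and BMP4-TGFB2 points lie left of 0 for nearly all members, and the BMP4 points of the mevalonate arm lie between -0.45 and -0.24.

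In the fit to all 12 libraries, BMP4 alone lowered fewer of these genes, and mostly those of fatty acid synthesis. Of the 32 genes 10 fell and none rose, where 6.78% of all genes tested fell and 8.60% rose. The median was -0.30, and it lay between -0.46 (without NT replicate 1) and -0.21 (without BMP4 replicate 3) as single libraries were left out, and at -0.56 without the 4 libraries of number 1. At an unadjusted p under 0.05, 1 rose, Me1, and DESeq2 gave 13 falls and 0 rises. Of the 10, 7 were among the 11 fatty acid genes (Acaca, Acacb, Fasn, Acss2, Elovl5, Elovl6 and Thrsp). The other three were Hmgcs1, Lss and Srebf1, so that 2 of the 17 sterol enzymes fell. Hmgcs1 lost its call in 11 of the 12 fits that left out a library and Thrsp in 10, while Lss and Srebf1 lost theirs in 0. Without the block 1 of the 32 fell, Acss2, beside 2.25% of all genes, and 0 rose, beside 3.19%.

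Elovl6 had 9.68, 27.7 and 22.1 TPM with BMP4, against 23.7, 53.3 and 49.5 TPM in NT, a change of -1.13 ± 0.14 (adjusted p = 0.00070). Its replicate 2 with BMP4 lay above replicate 1 of NT, while every pair of the same number was lower. Fasn had 184, 374 and 353 TPM with BMP4 and 402, 615 and 587 TPM in NT, with no overlap and a change of -0.88 ± 0.13. Acaca had 22.2, 66.5 and 47.0 TPM with BMP4 and 52.6, 105 and 109 TPM in NT, a change of -0.84 ± 0.12. Acss2 changed by -1.62 ± 0.21, Elovl5 by -0.39 ± 0.09 and Srebf1 by -0.53 ± 0.08, each with every BMP4 library below every NT library. Such separation held for 6 of the 32 genes, against 12.1% of all genes. Thrsp, with 14, 2 and 1 counts with BMP4, and Acacb, with 52, 33 and 31 counts, passed narrowly (adjusted p = 0.050 and 0.042). Acacb lost its call under 11 of the 12 fits that left out a library, and its TPM went the other way from its counts in all 3 replicates, with 1.27, 0.415 and 0.466 TPM with BMP4 and 0.896, 0.379 and 0.365 TPM in NT. Its place among the 10 is therefore uncertain.

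The sterol genes moved differently by replicate number under BMP4. In the mevalonate arm the median difference between libraries of the same number was 0.38 in replicate 1, -0.53 in replicate 2 and -0.68 in replicate 3. Idi1 had 41.0, 144 and 110 TPM with BMP4 and 37.2, 190 and 188 TPM in NT, higher in replicate 1 and lower in the other two (-0.29 ± 0.17, adjusted p = 0.31). Fdps had 110, 303 and 216 TPM with BMP4 and 91.2, 413 and 357 TPM in NT, the same order. With the 4 libraries of number 1 left out, 17 of the 32 genes fell. At an unadjusted p under 0.05 that fit had 26 falls, more than the 11 fatty acid genes of the set. Without BMP4 replicate 2 or 3 the count of genes that fell was 6.

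**Figure D3:**
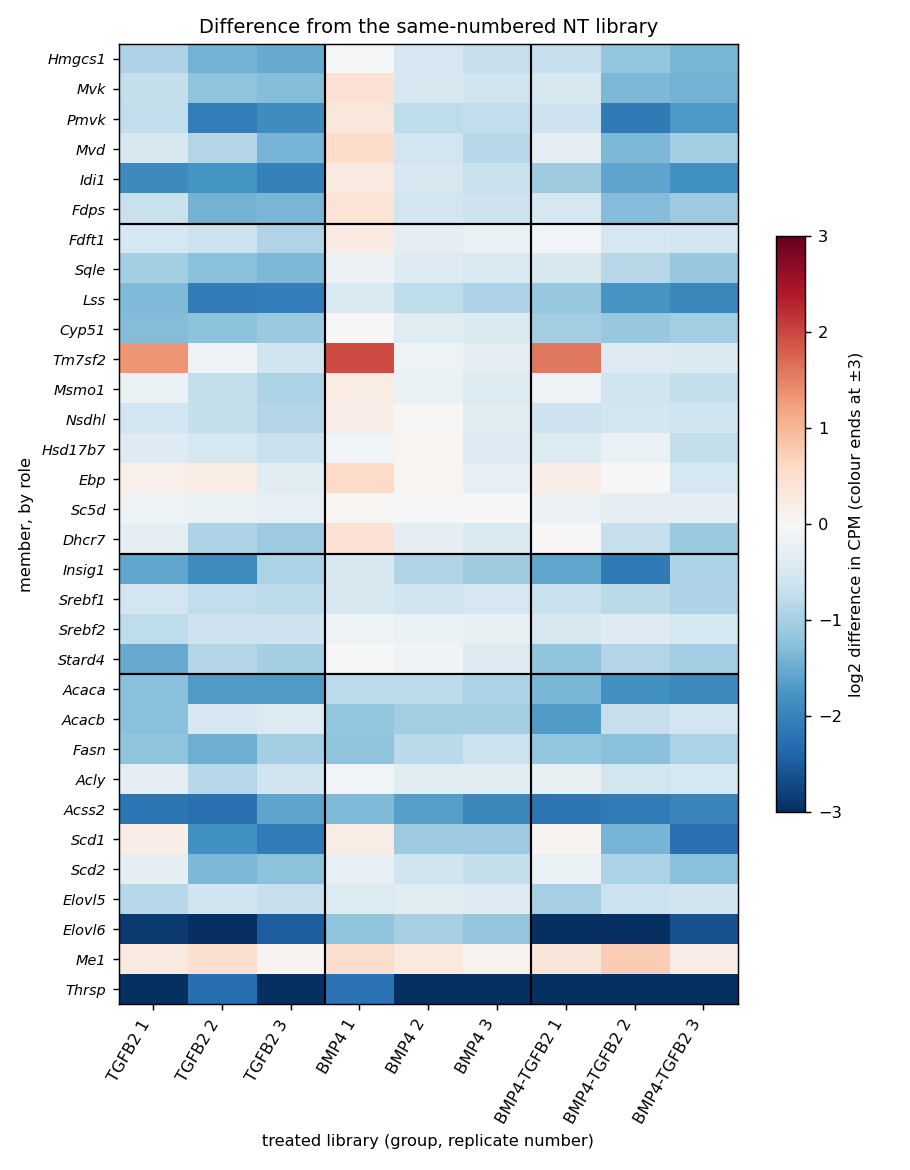
Log2 difference in CPM between each treated library and the NT library of the same replicate number (columns, 3 replicates for each of TGFB2, BMP4 and BMP4-TGFB2) for the 32 members (rows, by role, black lines between the roles). Blue is lower and red higher than NT, with the colour scale ending at ±3. Columns of TGFB2 and BMP4-TGFB2 are blue in nearly all rows, while replicate 1 of BMP4 is red for 5 of the 6 mevalonate genes, Hmgcs1 being the exception.

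With both ligands 29 of the 32 genes fell and 1 rose, where 21.0% of all genes tested fell and 20.4% rose. The median was -0.95, and 27 genes were lower in 3 of 3 pairs, against 29.7% of all genes. Every library with both ligands lay below every NT library in 10 of the 32, against 20.5% of all genes. Without the block 12 fell, beside 12.9% of all genes, and 1 rose, beside 13.3%. All 6 mevalonate genes, 9 of 11 genes from squalene to cholesterol, all 4 of regulation and transport and 10 of 11 fatty acid genes fell. Elovl6 had 2.31, 7.16 and 7.37 TPM with both ligands, against 23.7, 53.3 and 49.5 TPM in NT, a change of -2.92 ± 0.15, with the groups far apart. Idi1 had 15.9, 69.2 and 55.2 TPM with both and 37.2, 190 and 188 TPM in NT, a change of -1.50 ± 0.18 in groups that overlapped. Insig1 changed by -1.53 ± 0.25 and Acaca by -1.70 ± 0.12, both without overlap. Me1 rose, with 83.9, 101 and 73.8 TPM with both and 67.8, 55.7 and 65.6 TPM in NT (0.45 ± 0.13, adjusted p = 0.017), and this call was lost without replicate 2 of either group. The 3 treatments share the NT libraries, so their falls are not separate observations.

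Adding BMP4 to TGFB2 changed none of the 32 genes at an adjusted p under 0.05 by edgeR or DESeq2, where 0.0261% of all genes tested fell and 0.0131% rose. At an unadjusted p under 0.05 there were 4, all higher with both ligands. Values ran from -0.56 ± 1.41 for Thrsp to 0.41 ± 0.11 for Sqle, with a median of 0.08. Sqle had 39.2, 86.7 and 61.1 TPM with both and 26.7, 62.7 and 55.7 TPM with TGFB2, higher in each pair (adjusted p = 0.33). This comparison called few genes of any kind, and a missed threshold does not show that the groups were alike.

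Adding TGFB2 to BMP4, in contrast, lowered 16 of the 32 genes and raised none, where 12% of all genes tested fell and 10.7% rose. No gene rose at an unadjusted p under 0.05 and DESeq2 raised none. The 16 were 10 of the 17 sterol enzymes, 3 of the 4 genes of regulation and transport and 3 of the 11 fatty acid genes (Acaca, Elovl5 and Elovl6). Idi1 changed by -1.21 ± 0.18, Pmvk by -1.09 ± 0.25, Lss by -0.90 ± 0.15 and Elovl6 by -1.80 ± 0.14. All 17 sterol enzymes were lower in 3 of 3 pairs, where 28.6% of all genes were. Fasn, with 164, 282 and 295 TPM with both and 184, 374 and 353 TPM with BMP4, did not pass (-0.25 ± 0.13, adjusted p = 0.19). Without the block none of the 32 passed, beside 4.98% of all genes that fell and 4.24% that rose, and without BMP4 replicate 1 or BMP4-TGFB2 replicate 2 the count was 10.

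The ligands were also compared with each other. With BMP4, 18 of the 32 genes were higher than with TGFB2 and none was lower, where 10% of all genes tested were higher and 9.54% lower. None was lower at an unadjusted p under 0.05 or by DESeq2. Of the 17 sterol enzymes 13 were higher with BMP4, and of the 11 fatty acid genes 3 were (Acaca, Elovl5 and Elovl6). Idi1 had 41.0, 144 and 110 TPM with BMP4 and 9.11, 56.9 and 46.3 TPM with TGFB2, a difference of 1.62 ± 0.18 (adjusted p = 0.00026). It was higher in every pair, and replicate 1 of BMP4 lay below replicates 2 and 3 of TGFB2. Lss was higher by 1.1 ± 0.15 and Elovl6 by 1.66 ± 0.14, both without overlap in CPM, as were Pmvk, Msmo1 and Dhcr7, which makes 5 of the 32, against 13% of all genes. Fasn differed by 0.35 ± 0.13 (adjusted p = 0.082) and Acss2 by 0.37 ± 0.21 (adjusted p = 0.25). Without the block none of the 32 passed, beside 4.16% of all genes that were higher and 3.67% lower.

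The interaction asks whether the effect of TGFB2 was the same with BMP4 present. In all 4 genes passed, each with a positive value, where 0.588% of all genes tested had a positive and 1.24% a negative one. Elovl6 (0.99 ± 0.20), Fasn (0.98 ± 0.18), Acss2 (1.51 ± 0.29) and Sqle (0.75 ± 0.15) fell less with TGFB2 when BMP4 was present than when it was absent. For Fasn the change with TGFB2 was -0.25 ± 0.13 in cells given BMP4 and -1.23 ± 0.13 in cells without it. None had a negative value at an unadjusted p under 0.05 or by DESeq2. The count was 0 without the block, beside 0.0522% of all genes with a positive and 0.104% with a negative value. It was 2 with the libraries of number 1 left out, neither of them among the 4 genes named here, and 9 by DESeq2. As single libraries were left out the count ranged from 0 to 10. It was 0 without any of 7 libraries (NT replicate 2, TGFB2 replicates 1 and 2, BMP4 replicate 3, and each of the 3 BMP4-TGFB2 replicates).

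Apart from the ligands, the set divided the libraries by replicate number. In 22 of the 32 genes replicate 1 was the lowest of the 3 libraries in each of the 4 groups, which was so for 12.3% of all genes tested, and in none was it the highest throughout, which was so for 12.4%. The 22 included all 6 mevalonate genes, 8 of 11 from squalene to cholesterol, 3 of 4 of regulation and transport and 5 of 11 fatty acid genes. In the mevalonate arm replicate 1 lay below the mean of the other two by a median log2 difference of -1.05 with TGFB2, -0.99 with BMP4, -0.87 with both and -1.81 in NT. For fatty acid genes these medians were -0.28, -0.30, -0.39 and -0.63 in the same order. Srebf1, Scd1, Scd2, Me1, Acss2, Acacb and Thrsp were among the 10 that did not follow. The labels do not say what distinguished replicate 1, and what lowered these genes there was not tested.

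**Figure D4:**
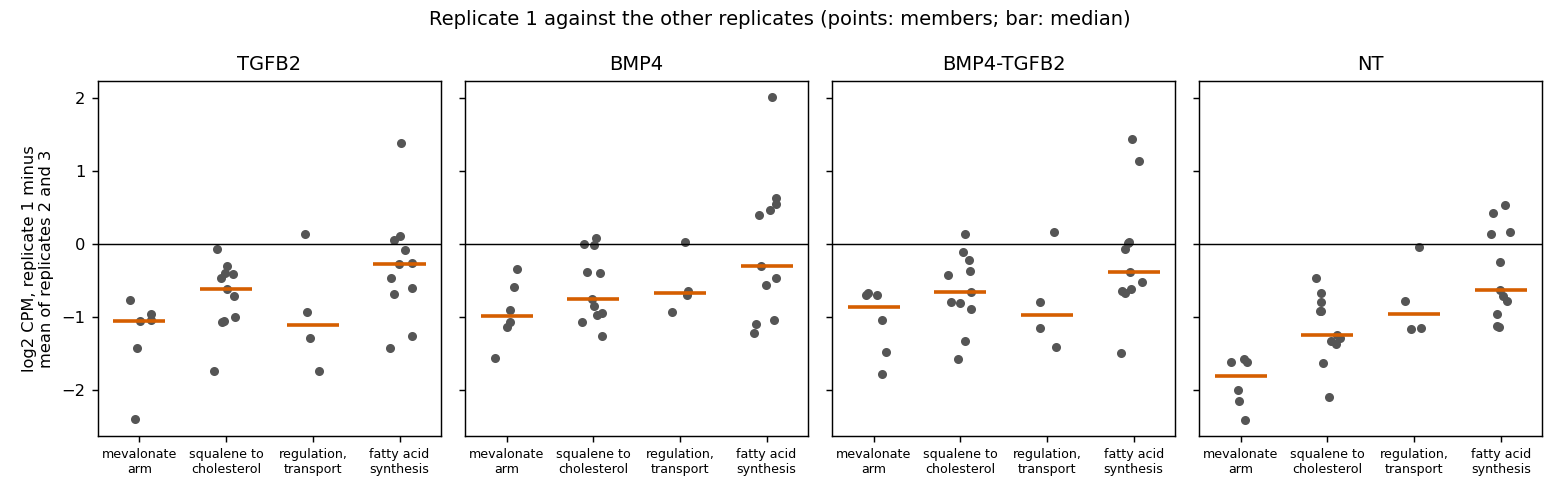
Log2 CPM of replicate 1 minus the mean of replicates 2 and 3 (vertical axis), for each member (points) by role, in the TGFB2, BMP4, BMP4-TGFB2 and NT groups. Orange bars are medians over the genes of a role. Mevalonate genes lie below 0 in all 4 groups, lowest in NT with a median of -1.81, and fatty acid genes scatter on both sides of 0.

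Cell cycle genes also split by replicate number, with their largest TGFB2 difference in replicate 1. In 19 of 20 cell cycle genes replicate 1 was the lowest library of every group, and 12 of the 20 fell with TGFB2, among them Mki67 (-1.98 ± 0.54), beside 19.2% of all genes. Without the block 0 of the 20 fell. Their median difference from the NT library of the same number was -1.80 in replicate 1, -0.47 in replicate 2 and -0.50 in replicate 3 of TGFB2. For the 32 lipid genes it was -0.72, -1.06 and -1.05. With BMP4, none of the 20 fell by edgeR at an adjusted or an unadjusted p under 0.05. At an adjusted p under 0.05, 7 of 11 fatty acid genes and 2 of 17 sterol enzymes fell, beside 6.78% of all genes. Without the block 1 of the 32 lipid genes fell with BMP4. What part cycling had in the fall of the lipid genes was not tested.

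Genes around the pathway changed in both directions with TGFB2, where 19.2% of all genes tested fell and 18.7% rose. Of 12 further genes of sterol synthesis, uptake and SREBP processing, 4 fell and 3 rose with TGFB2, and without the block 0 fell and 1 rose. Acat2, the thiolase that makes acetoacetyl-CoA, changed by -1.14 ± 0.12. Of 11 genes of sterol efflux, storage and the LXR sterol sensors, 6 rose and 1 fell. Those with the smallest p were Mylip, an LXR target that degrades lipoprotein receptors (1.40 ± 0.13), the phospholipid enzyme Lpcat3 (-0.61 ± 0.11), the LXR gene Nr1h2 (0.37 ± 0.09) and Abca1, the cholesterol exporter (0.83 ± 0.20). Without the block none of these 11 passed.

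Of 13 other genes of fatty acid and glycerolipid synthesis 3 fell and 1 rose with TGFB2, the desaturase Fads2 at -1.08 ± 0.13, the triglyceride enzyme Dgat1 at -0.80 ± 0.10, the elongase Elovl1 at -0.60 ± 0.11 and Fads3 at 1.69 ± 0.11. Without the block 2 fell and 1 rose. Of 9 genes of milk fat secretion and fatty acid uptake 3 fell and 2 rose, and 2 fell and 1 rose without the block. Elf5, a transcription factor of the milk-secreting lineage, had 14.2, 22.4 and 13.4 TPM with TGFB2, against 195, 300 and 239 TPM in NT (-3.93 ± 0.16). Xdh, needed for milk fat globules, changed by -2.05 ± 0.21, Mfge8, a globule protein, by -0.37 ± 0.11, and Plin2, the lipid droplet coat protein, by 1.42 ± 0.13. Of 11 genes of fatty acid oxidation 4 fell and 3 rose, and 3 fell and 3 rose without the block, with Ppargc1a, a coactivator of mitochondrial genes, at -4.36 ± 0.63 and the acyl-CoA dehydrogenase Acadvl at 0.56 ± 0.09.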

How the data were processed

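RNA was measured in 12 libraries in 4 groups of 3, grouped by the treatment named in the labels. Per the labels' protocols, poly(A) RNA was enriched with oligo(dT) beads and sequenced as paired ends. The deposited files give a single sequencing batch and an unstranded library type. The submitters' processing notes name Salmon 1.2.1, STAR 2.7.5b, bcl2fastq 2.17 and the GRCm38.p6 build. No setting of theirs is known here. Deposited by the authors were estimated counts per gene, 82.85% of them whole numbers, and TPM, which they had scaled for length and depth.

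Rounding the counts moved the total by 0.000361%. They were filtered with filterByExpr (minimum count 10), scaled by TMM and tested in edgeR 4.0.16 under R 4.3.3 with glmQLFit and glmQLFTest, its quasi-likelihood test. All 12 libraries entered a single model with replicate number as a block, as the definition of the gene set asks. P-values were Benjamini-Hochberg adjusted over all 15319 genes. There were 7 comparisons. Values after ± are SE of log2 fold changes. Matched differences used log2 CPM with a prior count of 2. Levels are TPM and all changes come from the counts. No pair of replicates agreed within sampling noise (the smallest chi-square per degree of freedom 29.2).

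Same-numbered libraries correlated above 0.1 in all 3 pairs, as deviations from group means across genes, for 4 of the 6 pairs of groups. They did not for TGFB2 with NT (0.304, 0.0805 and 0.233) or BMP4-TGFB2 with NT (0.233, 0.0256 and 0.191). Each TGFB2 library still correlated best with the NT library of its own number, while replicate 2 of BMP4-TGFB2 did not. The labels do not say what a number shares, so counts of members, and of the lipid and cell cycle lists with TGFB2, are given without the block too.

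The members and the other lists were chosen with earlier results of these data known. All 32 members could be named, and from each other list up to 4 genes that passed, with the smallest p, besides Smad7 and Mki67. Not every gene this rule allows is reported here. Positions are from GENCODE M21. The alternatives were no block, DESeq2 1.42.0, its size factors in edgeR, no filter, leaving out each library, and leaving out all 4 libraries of number 1. The fit was tested on simulated data in which replicate shifts were the same in every group. That test does not cover shifts that differ between groups, as those of the mevalonate genes did here.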

Additional observations from a re-analysis of the deposited data

Results flagged for a closer look

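Of the members, the lipid lists and the ligand response genes Smad7 and Pmepa1, 8 genes passed for a difference in the effect of TGFB2 with and without BMP4. The test was the interaction term of the edgeR fit with the replicate block, at an adjusted p under 0.05; over all genes 90 had a positive and 190 a negative value that passed. Among the members these were Acss2, with a difference of 1.51 on the log2 scale, Elovl6 with 0.99, Fasn with 0.98 and Sqle with 0.75. All 4 had a smaller fall with TGFB2 when BMP4 was present, and none passed without the block (adjusted p 0.26 to 0.84) or with the libraries of number 1 left out (0.0632 to 0.12). Among the other genes the cholesterol exporter Abca1 had -1.33, the desaturase homologue Fads3 -0.88, and the ligand response genes Smad7 and Pmepa1 -1.05 and -1.47. Abca1 was higher by 0.83 ± 0.20 with TGFB2 and by 0.82 ± 0.20 with BMP4, and by 0.32 ± 0.20 with both ligands against NT, which did not pass (adjusted p = 0.23). Pmepa1 was higher by 2.24 ± 0.12 with TGFB2 and 2.23 ± 0.12 with both.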

How the results depend on the processing

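Of 105 calls of a single member in a comparison, none changed direction under any alternative. Without the replicate block 79 lost the threshold, and the counts became 12 falls with TGFB2, 1 with BMP4 and 12 with both ligands against NT, 0 falls for BMP4-TGFB2 against BMP4, 0 higher for BMP4 against TGFB2, and 0 for the interaction. With the block, DESeq2 and its size factors in edgeR lost no call, DESeq2 gave 9 interactions, and testing without the filter gave 7 and lost 8 calls. With the 4 libraries of number 1 left out 12 calls were lost, 17 genes fell with BMP4 and 2 passed the interaction.

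As single libraries were left out, falls against NT numbered 24 to 27 with TGFB2, 6 to 16 with BMP4 and 23 to 29 with both ligands, where 0 to 1 rose. The BMP4 count was highest, at 16, without NT replicate 1. Falls of BMP4-TGFB2 against BMP4 ran from 10 to 20, genes higher with BMP4 than with TGFB2 from 14 to 21, and interactions from 0 to 10. The cause of these changes was not tested. Depth limits Thrsp and Acacb, whose counts were low in every group.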

Other observations

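With BMP4, 5 of 11 genes of efflux, storage and the LXR sensors rose and 0 fell by edgeR, at an adjusted or an unadjusted p under 0.05, beside 8.60% of all genes that rose. Ch25h, which makes an oxysterol that blocks SREBP processing, was higher by 2.04 ± 0.51 (adjusted p = 0.024), Npc2, a lysosomal cholesterol carrier, by 1.02 ± 0.12, and Soat1, which esterifies cholesterol for storage, by 0.66 ± 0.16. Without the block 1 of the 11 rose, beside 3.19% of all genes. In 4 of these 11 genes replicate 1 was the highest library in all 4 groups, beside 12.4% of all genes and 0 of the 32 synthesis genes. Other lipid lists held such genes too: 3 of 11 for fatty acid oxidation and 3 of 9 for milk fat secretion and uptake. It was so for 2 of 13 other fatty acid and glycerolipid genes and 1 of 12 further sterol genes.

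Elf5 was the gene of the milk fat list with the largest change in each treatment against NT. It had 14.2, 22.4 and 13.4 TPM with TGFB2, 92.3, 113 and 61.2 TPM with BMP4, 8.53, 12.1 and 6.70 TPM with both ligands and 195, 300 and 239 TPM in NT, with no overlap between BMP4, the groups given TGFB2, and NT.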
